A study of Mus musculus with 12 samples.

Results

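Podocytes are the epithelial cells that wrap the capillaries of the kidney glomerulus, and 7 genes used as their markers were followed in kidney RNA of mice given cannabidiol (CBD), the main non-intoxicating cannabinoid of Cannabis sativa. The genes were Nphs1, Podxl, Wt1, Synpo, Cdkn1c, Ptpro and Magi2. They were chosen by name as a fixed list, found through their Ensembl identifiers among the 57180 genes of each count table, and all 7 were among the 17163 genes with enough reads to be tested. The study used 12 male C57BL/6J mice, 60 days old at the start, in 3 groups of 4. The Control group received only the vehicle, saline with Tween 80, while the groups 10CBD and 20CBD received CBD in the same vehicle at 10 or 20 mg per kg of body weight. Every mouse was injected intraperitoneally once a day for 28 days, and poly(A) RNA of kidney tissue was sequenced, with 1 library per mouse. No allele or transgene was used, and whether 1 kidney or both, and which zones, entered each extract is not stated in the sources used here.

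Neighbouring podocytes interlock through foot processes, and the gap between them is closed by the slit diaphragm, a cell junction that holds back plasma proteins. Nephrin, the product of Nphs1, spans that gap, Magi2 is a scaffold beneath it, and Podxl (podocalyxin) and Ptpro (a receptor tyrosine phosphatase also called GLEPP1) lie on the free surface of the cell. Synpo (synaptopodin) binds the actin filaments of the foot processes, Wt1 is a transcription factor that keeps up the podocyte programme, and Cdkn1c (p57Kip2) is a cell cycle inhibitor of mature podocytes. Loss of several of these proteins is known to cause proteinuria, and a lower level of their RNA in whole kidney can come from fewer podocytes or from less RNA per podocyte, which cannot be told apart in bulk RNA.

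The members lie on separate loci in GRCm39 with the GENCODE vM39 annotation. Nphs1 (ENSMUSG00000006649) occupies chr7:30157740-30186675 on the plus strand, Podxl (ENSMUSG00000025608) chr6:31496418-31540924 on the minus strand, and Wt1 (ENSMUSG00000016458) chr2:104956625-105003961 on the plus strand. Cdkn1c (ENSMUSG00000037664) is the shortest, at chr7:143012069-143014806 on the minus strand, with 4 exons in 2.7 kb. Ptpro (ENSMUSG00000030223), at chr6:137229276-137440263 on the plus strand, spans 211 kb, and Magi2 (ENSMUSG00000040003), at chr5:19431741-20909790 on the plus strand, spans 1478 kb with 21 exons. Synpo (ENSMUSG00000043079) spans 67.1 kb on a further chromosome.

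The 250 bases before the start of the canonical transcript are shown for Nphs1, the slit diaphragm gene, and for Ptpro and Magi2, whose levels varied together from mouse to mouse. Each is written 5′ to 3′ on the strand of the gene, as read from GRCm39, with capitals for matches to GGGCGG, the GC box, on either strand. The windows are chr7:30158900-30159149 for Nphs1, chr6:137229026-137229275 for Ptpro and chr5:19431491-19431740 for Magi2. The Nphs1 window lies inside the annotated gene, which starts at 30157740, ahead of its canonical transcript at 30159150.
Nphs1: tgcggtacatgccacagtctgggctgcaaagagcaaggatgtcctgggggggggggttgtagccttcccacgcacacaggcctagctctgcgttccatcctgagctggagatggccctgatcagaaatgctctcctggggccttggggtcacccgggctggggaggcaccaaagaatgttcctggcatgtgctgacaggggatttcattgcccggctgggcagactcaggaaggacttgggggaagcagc
Ptpro: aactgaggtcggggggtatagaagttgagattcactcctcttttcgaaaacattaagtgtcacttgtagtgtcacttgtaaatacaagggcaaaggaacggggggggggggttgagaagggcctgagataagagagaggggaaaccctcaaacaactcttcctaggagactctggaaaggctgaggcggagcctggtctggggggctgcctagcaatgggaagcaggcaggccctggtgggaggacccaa
Magi2: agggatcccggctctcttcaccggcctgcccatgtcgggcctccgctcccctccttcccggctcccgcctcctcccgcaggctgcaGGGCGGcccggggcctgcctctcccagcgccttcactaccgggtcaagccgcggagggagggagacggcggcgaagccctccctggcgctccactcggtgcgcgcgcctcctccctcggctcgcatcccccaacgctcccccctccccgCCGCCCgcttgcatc
The Magi2 window held 2 GC boxes and 27 CpG dinucleotides at a GC content of 75.6%. Exons of Magi2 share 1000 bases with the antisense gene 4921504A21Rik, which had 243 counts in all libraries together against 2896 for Magi2. The Ptpro window held 4 CpG at 54.0% GC, that of Nphs1 5 CpG at 61.2% GC, and neither had a GC box. Over 21770 promoters of the same length the median GC content was 53.2% and 36.3% held a GC box. None of the 3 windows held GCGNGGGNG, the letters bound by WT1 and the EGR factors (10.5% of all promoters, both strands), the clock E-box CACGTG (6.26%), the D-box TTATGNAA (3.05%) or TAATTA, the letters of LMX1B (5.18%). These matches describe the letters and are not measurements of binding.

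The libraries held between 15417867 and 23532088 counts on genes. Their mitochondrial share of counts ranged from 3.53% to 23.4% and differed strongly within groups, from 5.77% to 17.5% in Control, from 3.53% to 15.3% in 10CBD and from 5.54% to 23.4% in 20CBD. It was under 10% in 4 libraries, namely Control 2, 10CBD 1, 10CBD 3 and 20CBD 3, where the number is that of the mouse. The library of 20CBD mouse 2, which had the highest share, also had the highest level of the 12 for Nphs1, Podxl, Wt1, Synpo and Magi2, so the fold changes, the counts of calls and the correlations between members were also computed without it. Genes were called changed at an adjusted p under 0.1 by edgeR's quasi-likelihood test over all genes tested.

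All members were counted in every library, at very different levels. Per kb of exon, Podxl had a mean of 53.4 ± 5.74 CPM (the count of a gene relative to the TMM-scaled size of its library; SD, n = 12), which placed it at percentile 96.6 of the tested genes. It was followed by Cdkn1c with 8.57 ± 2.29, Synpo with 4.28 ± 0.80, Nphs1 with 3.60 ± 0.50, Ptpro with 2.13 ± 0.46, Wt1 with 1.95 ± 0.34 and Magi2 with 1.10 ± 0.30 CPM per kb. In this order the ranges over the 12 mice overlapped between all neighbours except Podxl and Cdkn1c, and Nphs1 and Ptpro. Podxl is also made by endothelial cells, and its level is therefore not a measure of podocytes alone. The smallest single count of a member was 141 reads, for Magi2, and the largest was 6332 reads, for Podxl.

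Nphs1, the defining gene of the slit diaphragm, showed no difference at either dose. Its level was 28.7, 22.8, 22.8 and 23.1 CPM in the 4 Control mice, 24.8, 26.7, 26.5 and 21.7 CPM in 10CBD, and 18.9, 29.5, 20.5 and 21.3 CPM in 20CBD. The 3 groups overlapped, and a single mouse stood high in Control and another in 20CBD. The log2 fold change was 0.03 with a 95% interval from -0.28 to 0.35 in 10CBD and -0.11, from -0.43 to 0.20, in 20CBD, with edgeR adjusted p-values of 0.982 and 0.892. These intervals leave room for a level down to 0.743 times that of Control at the higher dose. Exons of Nphs1 share 183 bases with the antisense pseudogene Rps12-ps4, which had 1216 counts in all libraries together against 5503 for Nphs1, and the strand setting of the counting is not given in the sources used here.

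Magi2, the scaffold under the slit diaphragm, varied more between mice treated alike than between groups. Control mice had 14.2, 11.6, 14.5 and 12.9 CPM, 10CBD mice 8.29, 17.7, 7.98 and 12.4 CPM, and 20CBD mice 15.1, 18.8, 8.44 and 13.0 CPM. Both treated groups thus held mice above and mice below all 4 Control mice. The log2 fold change was -0.21 (SE 0.26) at the lower dose and 0.06 (SE 0.25) at the higher dose, with edgeR adjusted p-values of 0.937 and 0.980. Its biological coefficient of variation, the spread between mice of a group that edgeR estimates, was 0.253, the highest of the members and above the median of 0.195 over all tested genes.

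Of the genes of the free cell surface, Podxl had 261, 302, 298 and 311 CPM in Control, 249.8, 286, 251 and 293 CPM in 10CBD, and 305, 367, 312 and 298 CPM in 20CBD. It was the only member with 2 groups that did not overlap in any of the 3 comparisons, since all 4 mice of 20CBD lay above all 4 of 10CBD, as did 1.70% of all genes tested, with 1.40% lying below. Against Control such a separation was seen for 1.55% of genes upward and 1.64% downward in 10CBD, and for 2.67% and 2.63% in 20CBD. The log2 fold change was -0.12 (SE 0.12) in 10CBD, 0.13 (SE 0.12) in 20CBD and 0.25 (SE 0.12) between the doses, the last with an edgeR p of 0.0541 and an adjusted p of 0.789. Ptpro had 14.3, 12.4, 16.7 and 18.6 CPM in Control, 11.0, 19.4, 13.0 and 13.4 CPM in 10CBD, and 17.8, 19.1, 10.1 and 14.5 CPM in 20CBD. Its group means, 15.5 ± 2.71, 14.2 ± 3.61 and 15.4 ± 4.01 CPM (SD, n = 4), were within the spread of the mice. The fitted log2 fold change of Ptpro was -0.13 (SE 0.21) in 10CBD and -0.01 (SE 0.21) in 20CBD.

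Synpo, which marks the foot processes, had a mean of 57.6 ± 3.98 CPM in Control, 54.5 ± 5.80 CPM in 10CBD and 65.4 ± 17.7 CPM in 20CBD (SD, n = 4). The wide spread in 20CBD came from mouse 2 with 91.7 CPM, while the other 3 mice had between 53.0 and 59.7 CPM. Without that library the log2 fold change of 20CBD against Control went from 0.18 (SE 0.16) to -0.02.

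Neither of the nuclear genes, Wt1 and Cdkn1c, passed the threshold. Wt1 had 11.6, 13.0, 12.6 and 11.6 CPM in Control, 8.29, 11.7, 10.7 and 12.4 CPM in 10CBD, and 15.4, 16.7, 12.3 and 14.5 CPM in 20CBD. Only 1 mouse of 20CBD was not above all Control mice, and only 1 mouse of 10CBD was above that mouse. The log2 fold change of Wt1 was -0.18 (95% interval from -0.50 to 0.13) in 10CBD, 0.27 (from -0.04 to 0.58) in 20CBD and 0.46 (from 0.14 to 0.77) between the doses. The last had an edgeR p of 0.00718, the only one under 0.05 for a member in any comparison, and an adjusted p of 0.758. Wt1 shares 3.82% of its exon bases with the antisense gene Wt1os, which had 440 counts against its 2835.

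Cdkn1c had 16.4, 20.9, 18.6 and 11.3 CPM in Control, 20.1, 14.4, 20.2 and 16.6 CPM in 10CBD, and 17.0, 15.4, 31.5 and 19.3 CPM in 20CBD. The groups overlapped, and the high value of 20CBD mouse 3 came from a library with a mitochondrial share of 5.54%. The log2 fold change was 0.09 (SE 0.23) at 10 mg and 0.31 (SE 0.23) at 20 mg, with edgeR adjusted p-values of 0.975 and 0.783. Without 20CBD mouse 3 the latter was 0.03.

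**Figure D1:**
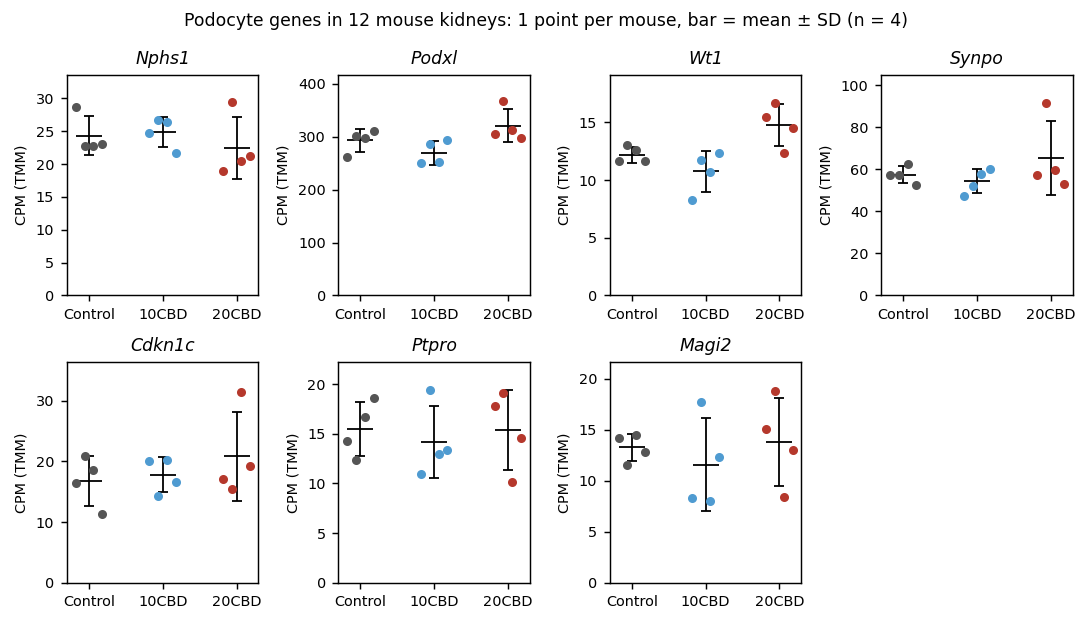
Level of each member in CPM (TMM scaled, linear axis from 0) by group, with 1 point per mouse and a bar for the mean ± SD of 4 mice. The groups overlap in every panel, except that the 4 mice of 20CBD lie above the 4 of 10CBD for Podxl, and 1 mouse of 20CBD stands far above the others for Synpo, at 91.7 CPM.

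Counted together, 0 of the 7 members were called in 10CBD against Control, where 0.0291% of all genes were, 0 in 20CBD against Control, where 0.303% were, and 0 between the doses, where 0% of genes were. At an unadjusted edgeR p under 0.05, the members gave 0, 0 and 1, the last being Wt1, and DESeq2 also called 0 in each comparison. In the same order 5.67%, 8.45% and 6.31% of all genes had such a p. With so low a background, a count of 0 in 7 genes says little on its own, and the intervals carry the information. At the lower dose they lay between 0.594 and 1.48 times the Control level over all 7 members, and at the higher dose between 0.714 and 1.73 times.

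The direction of the small differences was not the same at both doses, though every member interval against Control included no change. Without the 4 libraries under 10% mitochondrial counts, Nphs1, Wt1 and Magi2 changed sign in 10CBD and the other members did not. Some members also covaried between mice, so their signs are not independent of one another. A positive log2 fold change was seen for 2 of 7 members in 10CBD and 5 of 7 in 20CBD, where 52.3% and 52.5% of all genes were positive, and both comparisons share the 4 Control mice. The median log2 fold change of the members was -0.12 and 0.13, against 0.01 over all genes in both comparisons. Between the doses it was 0.25 against -0.003 over all genes, with 6 of 7 members higher in 20CBD, against 49.4% of all genes, and Nphs1 the exception. The summed level of the 7 genes, most of it from Podxl, was 404 to 445 CPM in Control, 370 to 430 CPM in 10CBD and 434 to 558 CPM in 20CBD. No test was made on these sums, and leaving out 20CBD mouse 2 took the median of the members in 20CBD against Control to -0.02.

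**Figure D2:**
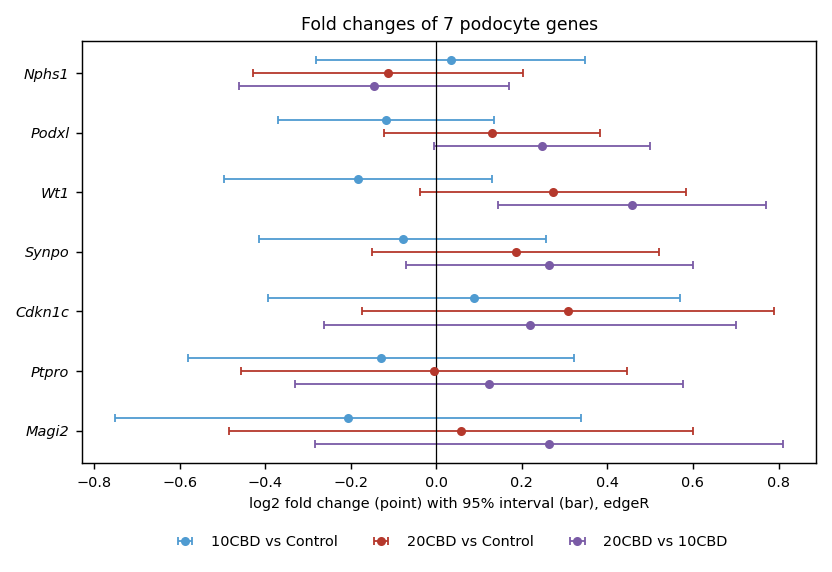
Log2 fold change (x axis) of each member in the 3 comparisons with its 95% interval, derived from the edgeR test. All intervals against Control include 0, and the interval for Wt1 between the doses, from 0.14 to 0.77, is the only one that does not.

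Other podocyte genes were examined as 5 lists by role, 34 genes of which 32 were tested, Kirrel2 and Trpc6 having too few reads. None was called in any comparison, against the same backgrounds of 0.0291%, 0.303% and 0%. Kirrel1, a slit diaphragm protein that pairs with nephrin, had a log2 fold change of -0.07 in 10CBD and 0.37 in 20CBD, with edgeR adjusted p-values of 0.980 and 0.704. In 10CBD the 32 genes had a median log2 fold change of -0.01, with Foxc2 at 0.26, Ddn (dendrin, found in foot processes) at 0.24 and Bmp7, a secreted growth factor, at -0.24. None had an unadjusted edgeR p under 0.05.

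In 20CBD 5 of the 32 genes had an edgeR p under 0.05 before adjustment, against 8.45% of all genes, 1 higher and 4 lower, and the lower ones were all in the list for basement membrane and adhesion. Foxc2 (chr8:121842910-121845634), a forkhead factor needed for podocyte differentiation, had 2.47, 3.00, 2.06 and 2.50 CPM in Control and 3.98, 6.27, 3.89 and 4.12 CPM in 20CBD. These groups did not overlap. Of the 32 genes, 1 lay wholly above Control in 20CBD and 3 wholly below, against 2.67% and 2.63% of all genes. The log2 fold change of Foxc2 was 0.86 (SE 0.24, edgeR adjusted p = 0.304). DESeq2 gave an adjusted p of 0.0731 for it, and edgeR with the mitochondrial share as a covariate gave 0.0637. Over all genes those fits called 182 and 1386 in 20CBD, against 52 in the main fit. Foxc2 was not called with limma-voom or in any of the 12 fits that left out 1 library. Endothelial cells also make Foxc2.

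Col4a3 and Col4a4 encode chains of the type IV collagen network that podocytes lay down in the glomerular basement membrane. They lie head to head, at chr1:82564642-82699780 and chr1:82426144-82564800, and overlap by 159 bases. Col4a3 had 333, 309, 308 and 370 CPM in Control, 512, 346, 334 and 251 CPM in 10CBD, and 205, 221, 189 and 248 CPM in 20CBD. All 4 mice of 20CBD lay below all 8 others, while 10CBD spanned a wide range. Of all genes, 2.63% lay wholly below Control in 20CBD and 1.40% wholly below 10CBD. The share below both at once was not computed. The log2 fold change of Col4a3 was -0.61 (SE 0.18) against Control, with an edgeR adjusted p of 0.337, and -0.74 (SE 0.18) against 10CBD, with an adjusted p of 0.758. The first had an adjusted p of 0.0999 with DESeq2, 0.0212 with no filter on low counts, 0.0627 with the mitochondrial share as a covariate and 0.0912 without the 4 libraries under 10% of it. The second had 0.0994 with DESeq2 and 0.0044 with no filter. Over all genes, the settings given for the first called 182, 416, 1386 and 107 in that order, against 52 in the main fit. Those given for the second called 12 and 256, against 0. In neither comparison was Col4a3 called with limma-voom or in any of the 12 fits that left out 1 library.

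The other low genes of that list were Npnt (nephronectin, an integrin ligand in the basement membrane), at -0.46 (SE 0.15, edgeR adjusted p = 0.383, and 0.0267 with the mitochondrial share as a covariate), Col4a4 at -0.42 (adjusted p = 0.555) and Col4a5 at -0.33 (adjusted p = 0.533). Npnt was called only in the fits with that share, or its log2, as a covariate, and in none of the 12 fits that left out 1 library. Col4a4 and Col4a5, the latter the third chain of the same network, were picked for mention after their values were seen. In 10CBD the 3 collagen genes were at 0.13, 0.22 and 0.16 in the order Col4a3, Col4a4 and Col4a5. The basement membrane list of 7 genes had a median of -0.33 in 20CBD and 0.14 in 10CBD. It did not fall as a whole in 20CBD, where its remaining genes, Lamb2, Lama5 and Itga3, were at 0.13, 0.09 and -0.04. Some tubule cells also make this collagen, and their part in these levels was not tested.

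**Figure D3:**
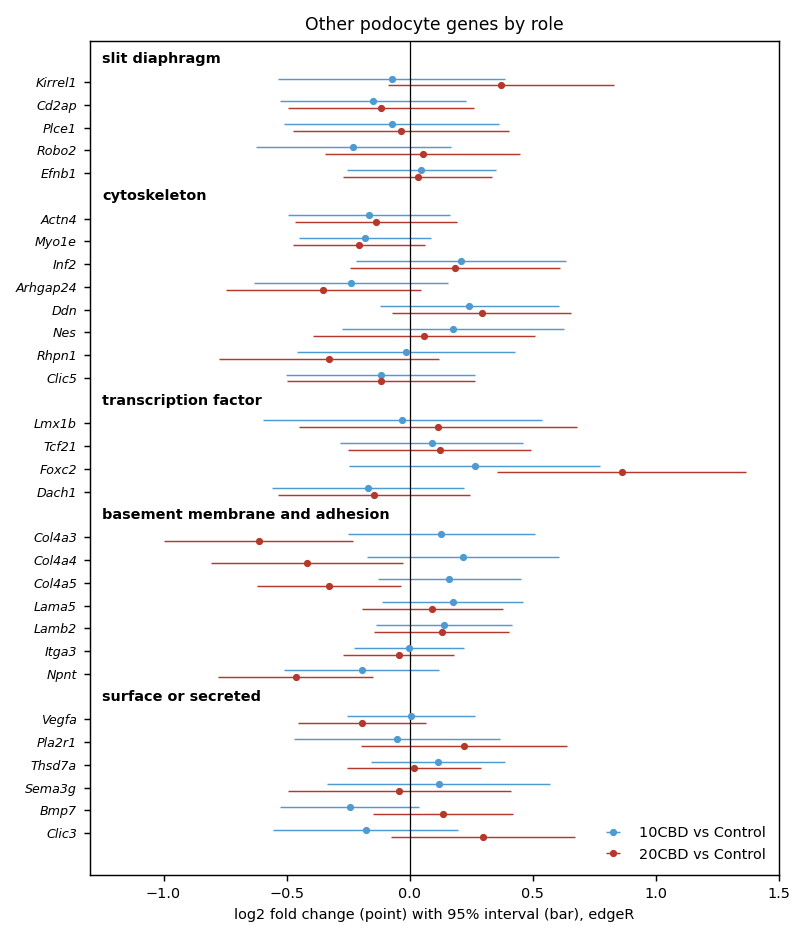
Log2 fold change with 95% interval (x axis) of 30 of the 32 other podocyte genes tested, by role, for 10CBD and 20CBD against Control. The intervals of Foxc2, Col4a3, Col4a4, Col4a5 and Npnt in 20CBD leave out 0, but 0 of the 32 genes were called after adjustment over all genes.

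The other cells of the glomerulus and kidney were read through fixed marker lists. Summed over each list, glomerular endothelial markers, led by Flt1, had 405 to 443 CPM in Control, 382 to 431 CPM in 10CBD and 384 to 469 CPM in 20CBD. Mesangial markers, led by Pdgfrb, had 97.6 to 109 CPM, 101 to 138 CPM and 115 to 142 CPM in the same order, so that all 20CBD mice lay above all Control mice, and none of the 5 genes was called. Parietal epithelial markers, led by Akap12, ranged from 57.4 to 85.0 CPM over all mice and immune markers, led by C1qa, from 24.7 to 48.2 CPM. Tubule markers took far more of the counts, with 6100 to 9137 CPM for the proximal tubule, led by Slc34a1, 1053 to 2327 CPM for the thick ascending limb, led by Slc12a1, 866 to 1390 CPM for distal tubule and collecting duct, led by Slc12a3, and 57.2 to 185 CPM for the inner medulla and thin limb. The proximal tubule sums of 20CBD, 6100 to 7137 CPM, all lay below those of Control, 7456 to 9137 CPM. By log2 fold change 6 of its 7 genes were lower, from Lrp2 at -0.76 to Slc22a6 at -0.03, and Slc7a13 was higher at 0.33. Of single genes, 2.63% lay wholly below Control in 20CBD and 2.67% wholly above, and no test was made on the list sums. Slc5a2, the glucose transporter SGLT2, was the only called gene of all these lists, with a log2 fold change of -0.61 (SE 0.12, edgeR adjusted p = 0.082) in 20CBD against Control. It was no longer called in 8 of 12 fits that left out 1 library.

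Markers of tissue around the kidney also differed between mice. Fat markers, led by Cfd, summed to 4.83 to 81.0 CPM in Control, 0.451 to 29.0 CPM in 10CBD and 0.120 to 15.4 CPM in 20CBD, with none of the 3 tested genes called. The adrenal cortex list had 3.61 to 5.48 CPM, almost all of it from Star, while its defining enzymes Cyp11b1 and Cyp11b2 had at most 3 reads per library. The part of these shifts in the levels of the podocyte genes was not tested.

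Between mice treated alike the members did not move as 1 block. Over the 12 mice with the mean of each group removed, the 21 pairs of members had a median Pearson r of 0.34, and 15 pairs were positive. All 6 negative pairs involved Cdkn1c. Without 20CBD mouse 2 the median r was -0.0081. Two-sided exact permutation p-values came from all 13824 ways to rearrange mice inside their groups, and after adjustment over the 21 pairs there were 3 pairs with an adjusted p under 0.1. Nphs1 had r of 0.14 with Podxl, 0.11 with Wt1 and 0.59 with Synpo, the last turning to -0.38 without Control mouse 1 and 20CBD mouse 2, and none of its pairs had an adjusted p under 0.1.

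Cdkn1c and Ptpro were the most opposed pair. Their r was -0.88 (exact permutation p = 0.000868, adjusted p = 0.0182) and their Spearman's rho -0.88 (p = 0.00101, adjusted p = 0.0213), and r was -0.82 once the 2 mice with the most extreme Cdkn1c levels were left out. Cdkn1c and Magi2 had r = -0.74 (exact permutation p = 0.0047, adjusted p = 0.0329) and rho = -0.75 (p = 0.0117, adjusted p = 0.082), with r at -0.94 without those 2 mice. Ptpro and Magi2 went together, with r = 0.87 (exact permutation p = 0.0026, adjusted p = 0.0273), rho = 0.80 (p = 0.00571, adjusted p = 0.060) and r at 0.56 without the 2 mice most extreme in Ptpro. Among the 8 mice with a mitochondrial share over 10% the 3 values of r were -0.66, -0.22 and 0.73 in the same order, with exact permutation p-values of 0.111, 0.486 and 0.222, where 72 arrangements allow no p under 0.0278. The 4 mice under 10% were too few for a value. The adjusted p stayed under 0.1 in 12, 7 and 10 of the 12 computations that left out 1 mouse. With the mitochondrial share removed as well as the group means, r over all 12 mice was -0.68, -0.16 and 0.37. The permutation p-values were 0.0094, 0.690 and 0.414 before adjustment. None of the adjusted p-values was under 0.1, with 0.197 for Cdkn1c and Ptpro.

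**Figure D4:**
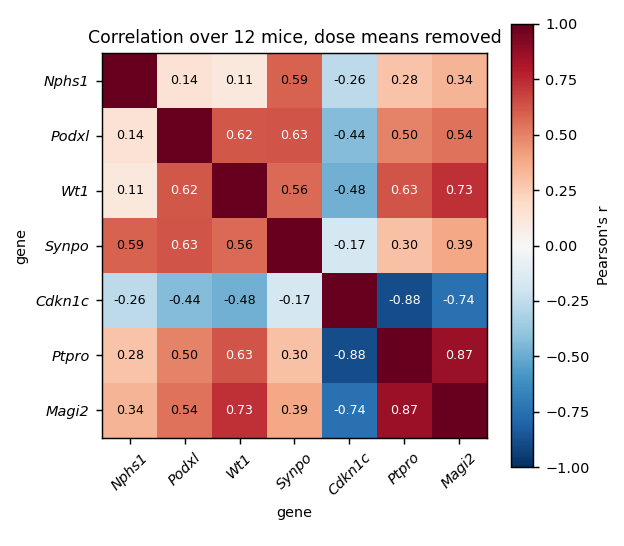
Pearson's r of each pair of members over 12 mice, computed on log2 CPM with the mean of each dose group removed (colour scale from -1 to 1). The row of Cdkn1c is negative throughout, down to -0.88 with Ptpro, and Ptpro and Magi2 have the highest r, 0.87.

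The mitochondrial share was therefore entered as a covariate in the same edgeR model, a step chosen after the data had been seen. Per 10 percentage points of mitochondrial share, Magi2 was higher by a log2 value of 0.60 (95% interval from 0.39 to 0.81, edgeR adjusted p = 0.00035), and Ptpro by 0.46 (from 0.26 to 0.66, adjusted p = 0.00184). Cdkn1c was lower, with a coefficient of -0.43 (from -0.65 to -0.21, adjusted p = 0.00479), and Wt1 higher at 0.20 (adjusted p = 0.0943), the latter called in only 3 of 12 fits without 1 library. In the 4 libraries under 10%, Cdkn1c was above and both Ptpro and Magi2 were below their level in all 8 other libraries. Synpo at 0.18, Podxl at 0.10 and Nphs1 at 0.08 were not called. That makes 4 of 7 members called, where 38.3% of all genes were. By direction they were 3 positive and 1 negative, against 18.7% and 19.6% of all genes, so a relation to this share is common in the transcriptome.

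Gene length went with these coefficients. Over 17077 genes, 8.52% of those spanning up to 5 kb but 38.6% of those over 200 kb were called higher with the mitochondrial share, and 22.8% and 6.55% were called lower. Magi2 and Ptpro belong to the longest class and Cdkn1c, at 2.7 kb, to the shortest, and Spearman's rho between span and coefficient was 0.24 across genes, which are not independent replicates. Leaving out each library in turn kept the call of Magi2 and Ptpro in 12 of 12 fits and that of Cdkn1c in 11, the exception being the fit without 20CBD mouse 3 (edgeR adjusted p = 0.105). Within the 8 libraries over 10% no member was called, with edgeR adjusted p-values from 0.679 to 0.973. Coefficients were 0.45 for Magi2, 0.36 for Ptpro and -0.07 for Cdkn1c, with fewer libraries and a narrower range of the share. Cdkn1c thus came close to 0. Magi2 and Ptpro kept a similar size, but Synpo was larger there, at 0.66, and Podxl, Wt1 and Nphs1 were at 0.25, 0.21 and 0.20, so size alone does not set Magi2 and Ptpro apart. With the covariate in the model the log2 fold change of Cdkn1c in 20CBD was 0.41, with an edgeR adjusted p of 0.133, the smallest of any member under any alternative, while that of Magi2 went from 0.06 to -0.20.

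**Figure D5:**
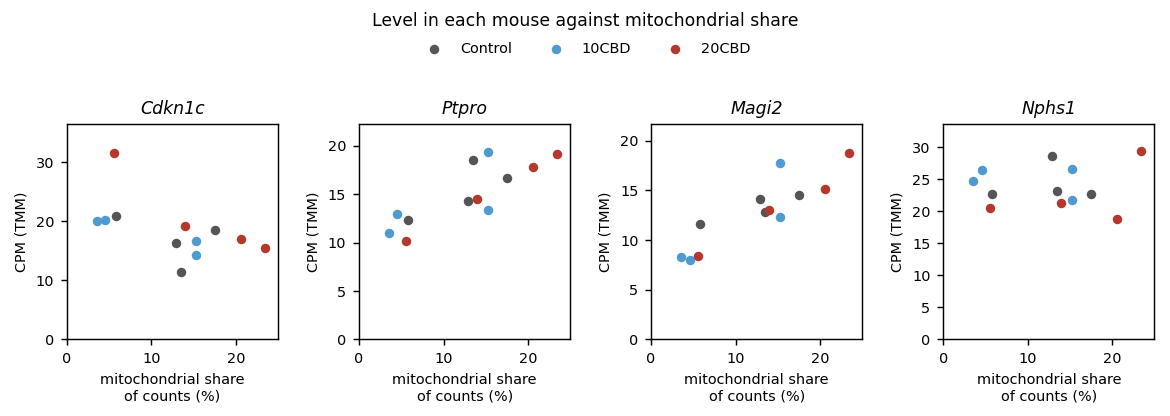
Level in CPM (y axis, from 0) of Cdkn1c, Ptpro, Magi2 and Nphs1 in each of the 12 mice against the mitochondrial share of its counts in percent, coloured by group. Ptpro and Magi2 are low and Cdkn1c is high in the 4 libraries with a share under 10%, while Nphs1 shows no such trend.

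The genes whose levels followed the mean of the 7 members most closely over the 12 mice, with group means removed, were Gpr182 (r = 0.957), Orc2 (0.949), Elmo1 (0.946), Tbc1d25 (0.944), Ubald2 (0.939), Dda1 (0.938), Tgfb1 (0.938), Hlcs (0.935), Zfp362 (0.932) and Bola3 (0.927). None of these 10 is on a podocyte list, Gpr182 being an endothelial receptor. They are the top of a ranking of all genes, with no test or background for their r. The ranking was not repeated with libraries left out or with the mitochondrial share removed. Leaving out a single library took the median r between members from 0.34 to as low as -0.0081. For the mitochondrial share, 38.3% of all genes were called. Whether these 10 genes track the members apart from that library and that share was not tested. Of the other podocyte genes, Itga3 (r = 0.682), an integrin that anchors the foot processes, and Plce1 (r = 0.671) came highest, at ranks 713 and 798. Col4a4 (r = -0.617) and Rhpn1 (r = -0.548) came lowest. Within the members, Synpo followed their mean best (r = 0.837) and Cdkn1c ran against it (r = -0.503). That mean includes the member itself, so these r cannot be set beside those of the other genes.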

How the data were processed

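Poly(A) RNA of mouse kidney was sequenced as paired reads, 1 library per mouse. The authors checked reads with FastQC 0.11.9, trimmed them, mapped them to GRCm39 with STAR 2.7.5c and counted them per gene with HTSeq 1.99.2, per the submitters' processing notes, which also list DESeq2. The deposited files hold these raw counts without normalization. Annotation release, strand setting, and use of molecular identifiers are not given in the sources used here. The counter's summary lines were left out. Of 57180 gene identifiers, 99.0% matched GENCODE vM39. No 2 libraries held the same counts.

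Genes were kept by filterByExpr (17163 genes), scaled by TMM and fitted with the quasi-likelihood model of edgeR 4.0.16 (R 4.3.3) with a mean for each of the 3 groups over all 12 libraries, and p-values were adjusted by Benjamini-Hochberg over all genes tested. The adjusted p threshold of 0.1 is that of the study. For correlations, log2 CPM used a prior count of 2. Alternatives were DESeq2 1.42.0, limma-voom (limma 3.58.1), other scalings and filters, the mitochondrial share as a covariate, the replicate number as a block, and leaving out libraries. Scripts were tested on simulated data. Precision rests on the spread between 4 mice.

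The members, the podocyte lists and the marker lists (mesangial, parietal epithelial, endothelial, proximal tubule, thick ascending limb, distal tubule and collecting duct, inner medulla and thin limb, fat, adrenal cortex, immune) were chosen with earlier results of these data known. Named by rule were the members, a few further defining podocyte genes such as Kirrel1, called genes of any list and each list's most abundant gene, for each dose the 2 podocyte genes with the largest increase and the 2 with the largest decrease, and the 10 genes most like the members' mean. Some genes and sequences that the rule covers are not reported here.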

Additional observations from a re-analysis of the deposited data

Results flagged for a closer look

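In 48 groups of 4 mice, over 16 named genes, a single mouse stood apart from the other 3 of its group in 3 cases by Dixon's test, which chance alone does in about 1 in 20 groups. Nphs1 was at 28.7 CPM in Control mouse 1, against 22.8 to 23.1 CPM in the other 3. Foxc2 was at 6.27 CPM in 20CBD mouse 2, against 3.89 to 4.12 CPM, and Ddn in the same mouse was at 15.7 CPM, against 11.0 to 11.3 CPM.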

How the results depend on the processing

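Over 21 alternatives, 12 of which left out 1 library each, the 7 members gave 441 further log2 fold changes, of which 0 were called, 416 kept their direction and 25 changed it. The number of called genes in 10CBD, 20CBD and between the doses was 5, 52 and 0. It was 40, 182 and 12 with DESeq2, 331, 416 and 256 with no filter on low counts, and 15, 1386 and 62 with the mitochondrial share as a covariate. With log2 of that share, a scale added after the data were seen, it was 13, 935 and 29. Without the 4 libraries under 10% mitochondrial counts it was 26 in 10CBD and 107 in 20CBD, and at an adjusted p under 0.05 it was 3 and 23. Leaving out 1 library gave 2 to 8 and 14 to 54.

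Of the other podocyte genes, DESeq2 called 2 in 20CBD against Control, where it called 182 of all genes. With no filter it was 1, and 416 of all genes. The covariate gave 4 on either scale, where 1386 of all 17163 genes were called, or 935 on the log2 scale. Without the 4 libraries it was 1, and 107 of all genes. Between the doses it was 1 with DESeq2 and 2 with no filter, against 12 and 256 of all genes. The labels do not say whether the replicate numbers pair the mice. Deviations of mice with the same number correlated between -0.33 and 0.317, and mice with different numbers were not compared, so this cannot settle it. With the replicate number as a block, 27 genes were called in 20CBD and Magi2 was at -0.014 there.

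Without the 4 libraries the direction turned in 10CBD for Nphs1 (-0.046), Wt1 (0.011), Magi2 (0.11), Col4a3 (-0.18) and Col4a4 (-0.14), and in 20CBD for Ptpro (0.058). The covariate turned Cdkn1c (-0.043) and Kirrel1 (0.054) in 10CBD, Magi2 in 20CBD (-0.20), and Ptpro (-0.19) and Magi2 (-0.11) between the doses. On the log2 scale it turned Cdkn1c (-0.088), Ptpro (0.042) and Kirrel1 (0.087) in 10CBD, Magi2 (-0.11) in 20CBD, and Ptpro (-0.16) and Magi2 (-0.077) between the doses. The causes were not tested. Leaving out 1 library gave ranges that cross 0 in 10CBD for Cdkn1c (-0.062 to 0.21), Col4a3 (-0.091 to 0.27), Kirrel1 (-0.15 to 0.026) and Nphs1 (-0.0034 to 0.13). They did so in 20CBD for Magi2 (-0.13 to 0.23), Ptpro (-0.13 to 0.15) and Synpo (-0.024 to 0.27), and between the doses for Cdkn1c (-0.051 to 0.34). The median of the members ran from -0.024 to 0.16 in 20CBD against Control and from 0.082 to 0.29 between the doses. The median r between members ran from -0.0081, without 20CBD mouse 2, to 0.463.

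With 4 mice a group, the intervals set what could be seen: at the widest against Control, for Magi2 in 10CBD, a log2 value from -0.75 to 0.34. Slc5a2 lost its call in 8 of 12 fits without 1 library.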
